A study of Bos taurus with 8 samples.

Results

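The 31 genes described here make cholesterol, sense it, take it up, move it, store it or export it. They were taken by name from a list, with no cut on their values, but the list was chosen with earlier results of these data known. It holds 18 enzymes of sterol synthesis, 5 genes of SREBP control, 5 of sterol uptake and transport, and 3 of sterol storage and efflux. A gene was matched through the symbol, an older alias or the transcript accession of its probes. Of the 31, 30 had a probe and all 30 passed the filter on dim probes (16912 genes had a probe and 13194 passed). STARD4, a cytosolic sterol carrier, had none and is not analysed here.

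RNA was measured on 8 Agilent arrays of bovine probes read in 1 colour (Cy3), with total RNA of 1 sample on each, 4 labelled non-pregnant and 4 labelled pregnant. All 8 samples are named as female fetal cotyledon, which is the part of the ruminant placenta formed by the fetus, with the groups described as before and after pregnancy, and no treatment, genotype, stage of gestation or animal number is given for either group. The labels call the organism cattle, but their protocol text says that gravid uteri of pregnant buffalo were collected at a slaughterhouse, so buffalo RNA was read with cattle probes as far as that text goes. Nothing says that arrays of a group came from separate animals, so a p-value reflects only how these samples vary, which may be technical.

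Animal cells build cholesterol from acetyl-CoA in the mevalonate pathway, close the chain into the sterol ring by way of squalene, and then trim lanosterol to cholesterol. When membranes of the endoplasmic reticulum hold little sterol, SCAP carries the SREBP transcription factors to the Golgi for cutting, and the freed factors switch on the synthesis genes. With enough sterol the INSIG proteins hold SCAP back. The trophoblast of the placenta uses cholesterol for membranes and as the starting material of steroid hormones.

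Values are levels on the log2 scale, the processed spot intensity relative to the array's 75th percentile, for the gene's brightest probe. A difference is the mean of the arrays labelled pregnant minus the mean of those labelled non-pregnant, with its standard error (SE), n = 4 arrays in each group. A gene was called where limma's p, adjusted by Benjamini-Hochberg over 34630 tested probes, was below 0.05. Levels of different genes come from different probes and are not compared with each other.

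The tissue label was checked against marker genes before the groups were compared. All 8 trophoblast markers were lower on the arrays labelled pregnant, where CDX2 and PLAC1 were well above background on no array. The summed trophoblast signal ran from 9.48 to 9.96 across the arrays labelled non-pregnant and from -1.30 to 1.25 on those labelled pregnant. Uterine markers ran the other way, from 0.57 to 1.86 against 6.60 to 7.80, with 6 of 7 higher and with ESR1 and HOXD10 undetected on the arrays labelled non-pregnant. The defining markers of placenta thus go against the group labels, and the groups are called by their labels throughout. All 6 erythroid markers were lower as well (8.40 to 9.24 against -0.70 to 1.52), with HBB, HBM and ALAS2 well above background on no array labelled pregnant. HBB, HBM and ALAS2 passed the filter only through the other group and are no support for that count. All 4 measured markers of dividing cells were lower too (4.11 to 4.502 against -2.86 to -1.51). Leukocyte markers were higher for 6 of 8 genes (2.75 to 3.94 against 5.18 to 6.42). Among the 6 is CD3G, undetected on the arrays labelled non-pregnant, which passed the filter only through the other group and is no support for that count. Epithelial markers were lower for 3 of 5 (7.18 to 7.91 against 5.64 to 6.65), endothelial ones higher for 2 and lower for 1 of 6 (3.20 to 3.48 against 3.92 to 4.72), smooth muscle ones higher for 4 of 6 (3.16 to 3.89 against 4.73 to 5.33), and fibroblast ones higher for 4 of 5 (6.34 to 7.54 against 8.03 to 8.77). In such bulk samples fewer cells of a type and less RNA per cell cannot be told apart, and the part these markers play in the sterol results was not tested.

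**Figure D1:**
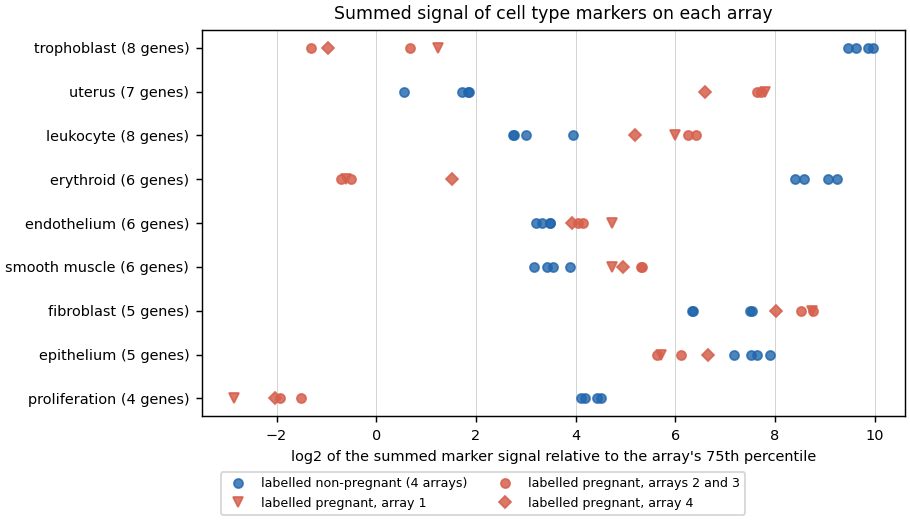
Summed signal of each marker list on each array, as log2 relative to the array's 75th percentile, with 1 point for each array. Trophoblast, erythroid and dividing-cell markers (the row named proliferation) were far lower on the arrays labelled pregnant, and the uterine and leukocyte markers were higher.

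All 8 arrays lay on 1 slide and were scanned together, with each group in a slide row of its own, so group and row cannot be told apart. The share of probes detected above background lay between 60.6% and 69.5%. Arrays of a group correlated at 0.94 to 0.99 over tested probes and arrays of different groups at 0.74 to 0.78. Array 4 labelled pregnant correlated at 0.943, 0.947 and 0.951 with arrays 1 to 3 of its group, which correlated at 0.977 to 0.989 with each other. Among the arrays labelled non-pregnant the lowest value was 0.957, between arrays 1 and 4. The number of arrays limits the precision of every value.

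Sterol genes were mostly lower on the arrays labelled pregnant. Of the 30 measured, 21 were called lower, 1 was called higher (STARD3) and 8 were not called. Over all tested genes 32.9% were called lower and 29.9% higher, so that 62.8% were called in some direction. The 22 calls among 30 genes were therefore not far above the background, and what set the sterol genes beside it was their direction. Since the list was chosen with earlier results of these data known, that direction is a description and no test. Their median difference was -1.46, against -0.03 over all tested genes, and 27 of 30 differences were negative. The groups did not overlap for 21 of the 30, where the share over all genes was 60.3%. In 20 of these 21 the arrays labelled pregnant were the lower group (31.9% of all genes). The synthesis enzymes had 14 lower, 0 higher and 4 not called of 18, with a median of -1.68 (every call by limma; the 4 had adjusted p from 0.0718 to 0.958). The 12 control, transport, storage and efflux genes had 7 lower, 1 higher and 4 not called, with a median of -0.83. Scaling the arrays on their median gave 26 members lower and 0 higher. It also moved the median of all genes to -0.41 and the share of higher calls among all calls from 47.6% to 34.9%. Without scaling these values were 25, 0, -0.51 and 31.7%.

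**Figure D2:**
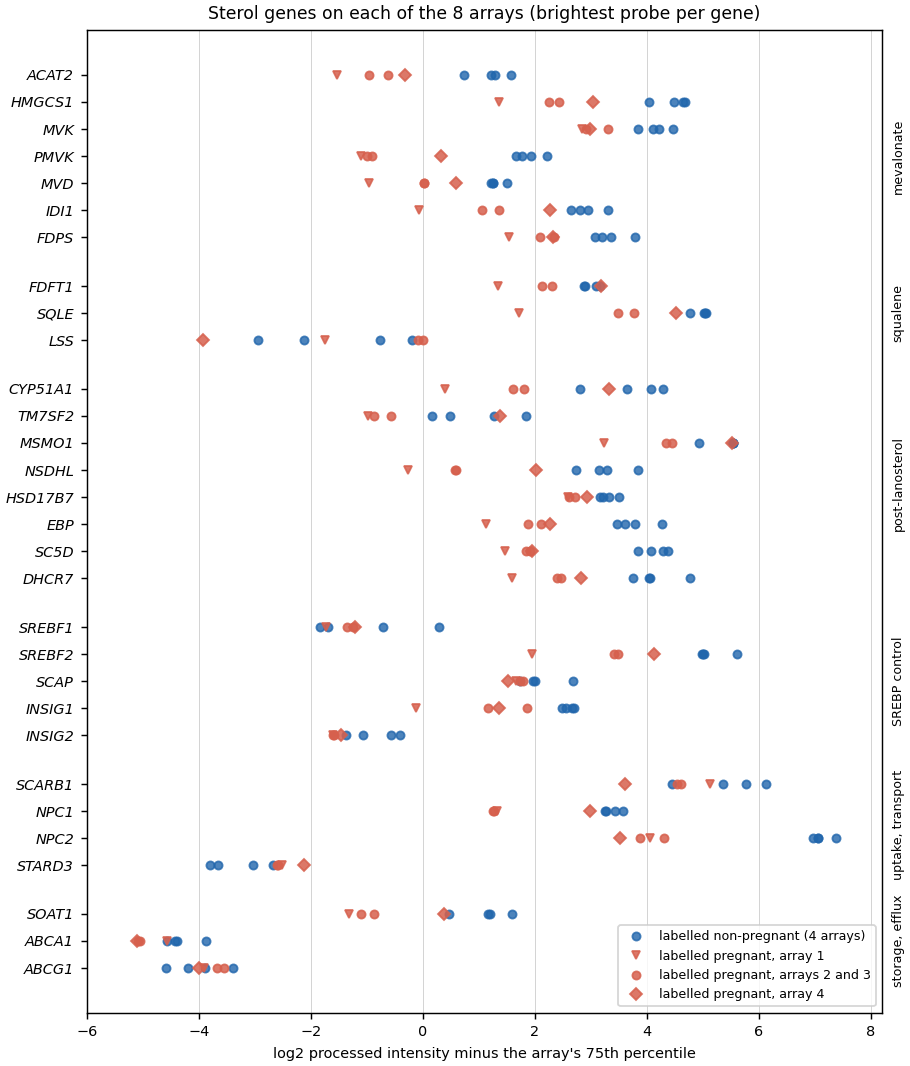
Level of each of the 30 sterol genes on each array, log2 processed intensity minus the array's 75th percentile, ordered by role. The enzymes of the mevalonate pathway show non-overlapping groups, and among the arrays labelled pregnant array 1 (triangle) is mostly lowest and array 4 (diamond) mostly highest.

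All 7 genes of the mevalonate pathway were lower on the arrays labelled pregnant, with a median difference of -1.77, and in each the groups did not overlap. ACAT2, the cytosolic thiolase that joins acetyl-CoA units, was at 1.28, 1.22, 0.73 and 1.57 across the arrays labelled non-pregnant and at -1.53, -0.62, -0.96 and -0.32 on those labelled pregnant. Its difference was -2.06 (SE 0.30, adjusted p = 0.000359). HMGCS1 (probe at chr20:33448201-33448260, build Btau_3.1), the cytosolic HMG-CoA synthase, was at 4.68, 4.48, 4.65 and 4.03 against 1.36, 2.43, 2.26 and 3.03. That made it 4.57-fold lower (log2 difference -2.19, SE 0.34, adjusted p = 0.000585), and even the highest array labelled pregnant lay below every array of the other group. All 3 probes of each of these 2 genes were called lower.

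The 2 kinases and the decarboxylase that turn mevalonate into isopentenyl diphosphate followed. PMVK, phosphomevalonate kinase (chr3:17052572-17052631), had the largest difference of the synthesis genes. It was at 2.21, 1.92, 1.66 and 1.78 across the arrays labelled non-pregnant and at -1.11, -0.91, -0.99 and 0.32 on those labelled pregnant, 5.91-fold lower (log2 difference -2.56, SE 0.33, adjusted p = 0.000170). Array 4 labelled pregnant stood 1.33 above the mean of the other 3 arrays of its group and still below the other group. MVK, mevalonate kinase, was at 4.46, 4.21, 3.84 and 4.11 against 2.83, 3.31, 2.91 and 2.99 (difference -1.14, SE 0.20, adjusted p = 0.00112). It was the mevalonate gene in which the arrays labelled pregnant lay closest together (SD 0.21). MVD, mevalonate diphosphate decarboxylase, was at 1.25, 1.26, 1.21 and 1.51 against -0.97, 0.01, 0.03 and 0.59 (difference -1.39, SE 0.31, adjusted p = 0.00420). A dimmer probe of MVK gave -0.22 and one of MVD -0.62, and neither was called.

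IDI1 isomerises isopentenyl diphosphate, and FDPS joins the resulting units to farnesyl diphosphate, from which the branches to squalene, dolichol, ubiquinone and protein prenylation leave. IDI1 was at 3.31, 2.95, 2.80 and 2.64 on the arrays labelled non-pregnant. On those labelled pregnant it spread from -0.07 on array 1, through 1.35 and 1.06, to 2.27 on array 4 (difference -1.77, SE 0.44, adjusted p = 0.00736). FDPS was at 3.79, 3.35, 3.20 and 3.08 against 1.53, 2.35, 2.09 and 2.33, 2.43-fold lower (log2 difference -1.28, SE 0.25, adjusted p = 0.00204). The gap between the groups was narrow for IDI1 and wider for FDPS.

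Of the 3 enzymes from farnesyl diphosphate to lanosterol only SQLE was called. SQLE, squalene epoxidase (chr14:14605558-14605617), was at 5.05, 5.04, 5.02 and 4.78 across the arrays labelled non-pregnant and at 1.72, 3.78, 3.49 and 4.52 on those labelled pregnant. It was 3.03-fold lower (log2 difference -1.60, SE 0.51, adjusted p = 0.0244), and array 1 labelled pregnant lay far below the other 3. The call was lost without array 1, 2 or 3 labelled non-pregnant (adjusted p = 0.0529, 0.0546 and 0.0521) and with quantile normalization (adjusted p = 0.128), while the values over all alternatives ran from -2.08 to -1.04 (adjusted p from 0.00611 to 0.128).

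FDFT1, squalene synthase, was at 3.17, 3.1, 2.90 and 2.88 against 1.35, 2.31, 2.12 and 3.17, a difference of -0.77 that was not called (SE 0.35, adjusted p = 0.0836). On array 4 labelled pregnant it stood as high as on the highest array of the other group. Without that array the difference was -1.09 and passed (adjusted p = 0.00702, range over the alternatives 0.00702 to 0.289). A second bright FDFT1 probe was called lower with all 8 arrays (-1.55, adjusted p = 0.0184). LSS, the cyclase that forms lanosterol, was spread from -2.94 to -0.20 and from -3.93 to -0.004 in the same order of groups. Its difference of 0.06 was small beside its SE of 0.93 and was not called (adjusted p = 0.958). It was -0.10 with quantile normalization, and -0.32 and -0.42 with median scaling and without scaling, which moved the median of all genes down too.

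The 8 enzymes from lanosterol to cholesterol all had negative differences, and 6 were called. SC5D, the sterol desaturase (chr15:30440742-30440801), had the smallest adjusted p among them: 3.85, 4.29, 4.38 and 4.07 against 1.47, 1.84, 1.91 and 1.95, 5.12-fold lower (log2 difference -2.36, SE 0.20, adjusted p = 1.48e-05). NSDHL, a dehydrogenase of the C4 demethylation complex (chrX:22539873-22539932), was at 3.83, 3.29, 3.15 and 2.74 against -0.26, 0.59, 0.58 and 2.02, 5.74-fold lower (log2 difference -2.52, SE 0.46, adjusted p = 0.00136). EBP, the sterol isomerase, was at 4.27, 3.79, 3.62 and 3.47 against 1.13, 2.10, 1.88 and 2.27 (difference -1.94, SE 0.29, adjusted p = 0.000459). In these 3 genes the groups lay apart, although in NSDHL array 4 labelled pregnant came within 1 log2 unit of the lowest array of the other group.

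DHCR7, which carries out the last reduction to cholesterol, was at 4.78, 4.06, 4.04 and 3.75 against 1.60, 2.47, 2.40 and 2.82 (difference -1.83, SE 0.32, adjusted p = 0.00101). HSD17B7, the ketoreductase of the C4 demethylation complex, moved little: 3.33, 3.49, 3.22 and 3.16 against 2.59, 2.61, 2.72 and 2.93 (difference -0.59, SE 0.17, adjusted p = 0.0160). Its groups did not overlap, but the call was lost under 4 of 20 alternatives, of which quantile normalization gave the smallest difference (-0.23, adjusted p = 0.254, the highest of the alternatives).

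CYP51A1, the lanosterol demethylase (chr4:9698115-9698174), was called lower although its groups overlapped. It was at 4.28, 4.08, 3.64 and 2.81 across the arrays labelled non-pregnant and at 0.40, 1.81, 1.61 and 3.32 on those labelled pregnant (difference -1.92, SE 0.58, adjusted p = 0.0188). Without array 1 or array 2 labelled non-pregnant the adjusted p was 0.0515 or 0.0506. CYP51A1 was the only member called lower whose value on array 4 labelled pregnant fell inside the range of the other group, which was so for 4.4% of all genes called lower.

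MSMO1, the methyl sterol oxidase, and TM7SF2, a sterol reductase, were not called. MSMO1 was at 5.54, 5.54, 5.54 and 4.94 against 3.23, 4.45, 4.35 and 5.51 (difference -1.003, SE 0.43, adjusted p = 0.0718). TM7SF2 was at 0.16, 0.49, 1.84 and 1.26 against -0.98, -0.88, -0.58 and 1.37 (difference -1.20, SE 0.57, adjusted p = 0.0984). In both, array 4 labelled pregnant lay inside the range of the other group and the other 3 arrays below it. Without array 4 both passed: MSMO1 at -1.38 (adjusted p = 0.00747, range over the alternatives 0.00747 to 0.422) and TM7SF2 at -1.75 (adjusted p = 0.00548, range 0.00548 to 0.228).

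The arrays labelled pregnant kept nearly the same order across the synthesis enzymes. Array 1 was the lowest of its group in 17 of 18 (24.4% of all tested genes) and array 4 the highest in 15 of 18 (32.2%). Both held together in 15 of 18 enzymes, where the share over all tested genes was 14.3%. LSS, in which array 4 was the lowest of all 8 arrays, went the other way. Array 4 stood more than 1 log2 unit above the mean of the other 3 in 9 of 18, against 10.5% of all genes. The median level of the 18 enzymes was 1.24, 1.97, 1.90 and 2.30 on arrays 1 to 4 labelled pregnant and 3.81, 3.42, 3.21 and 2.98 on those labelled non-pregnant, while the median of all tested genes stayed between 0.12 and 0.29 on every array. The enzymes share these libraries, so their common order is a description of 4 arrays. Among the arrays labelled non-pregnant the order was looser: array 1 was the highest in 11 of 18 enzymes (39.9% of all genes) and array 4 the lowest in 11 of 18 (46.6%). The SD was larger among the arrays labelled pregnant in 16 of 18 enzymes (45.8% of all genes).

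Beside this order stand other values that differed within the group labelled pregnant. The array's 75th percentile of intensity was 798, 970, 1019 and 1347 on arrays 1 to 4, lowest on array 1 and highest on array 4. Among the arrays labelled non-pregnant it was 1168, 1558, 1246 and 1797, highest on array 4, where the median level of the enzymes was lowest. In both groups arrays 1 to 4 lay in slide columns 1 to 4. The summed epithelial markers were at 5.72, 5.64, 6.11 and 6.65 on arrays 1 to 4. Array 4 was the highest for 4 of the 5 genes, but the lowest for KRT19. The summed erythroid markers were highest there too (1.52, against -0.70 to -0.51 on the other 3). That sum came mostly from HBA (-1.24, -1.14, -0.98 and 1.37), and array 4 was the highest for only 3 of the 6 erythroid genes. The summed uterine and leukocyte markers were lowest on array 4 (6.60 and 5.18), although the uterine gene SERPINA14 was highest there (2.85). The trophoblast markers did not follow the same order: 1.25, -1.30, 0.68 and -0.97. The part of any of these in the sterol values was not tested.

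**Figure D3:**
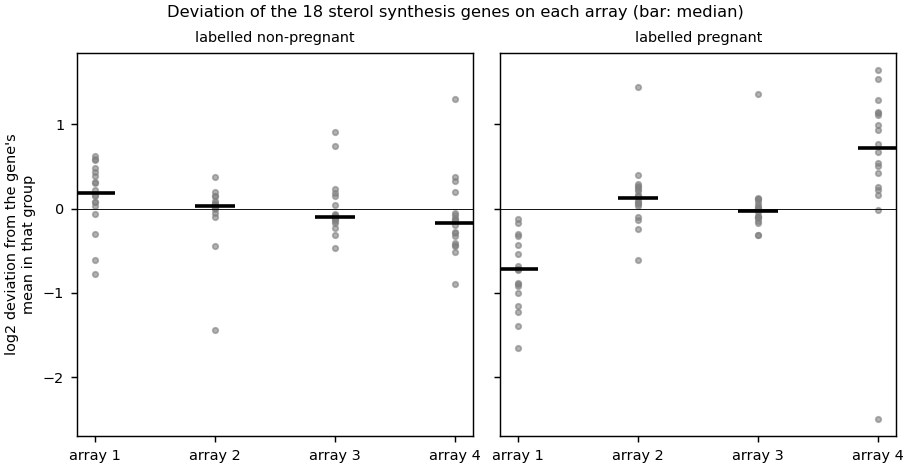
Deviation of each of the 18 synthesis enzymes from its own mean within the group, on the log2 scale, by array, with 1 point for each gene and a bar at the median. Among the arrays labelled pregnant most enzymes lie below their mean on array 1 and above it on array 4, and the low point on array 4 is LSS. The arrays labelled non-pregnant differ less, with higher values on array 1 than on array 4.

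Of the 5 genes of SREBP control, SREBF2, INSIG1 and INSIG2 were called lower, and SREBF1 and SCAP were not called. SREBF2 encodes the SREBP that mainly drives the sterol genes, and INSIG1 is itself a target of the SREBPs. SREBF2 and STARD3, a transport gene, lost their call when the median of a gene's probes replaced the brightest one, while INSIG1 kept it. The starts of the probes behind these values are therefore shown, the leading 30 bases of each 60-base probe as deposited in the scanner files, 5′ to 3′, with no base in capitals:
SREBF2 probe at transcript base 4328: gggggcaggcttggggatgggtgaaatcgt
SREBF2 probe at transcript base 3433: tgcccacatcagccgccgcctccctccatt
INSIG1 probe at transcript base 2660: taccagattggaacatctagtgagattcac
STARD3 probe at transcript base 1391: agtctgcaccttcatctggatccttaatac
STARD3 probe at transcript base 465: agatttaaaacttctttctttgacatcttt
The SREBF2 probes lie on the plus strand at chr5:120042349-120042408 and chr5:120041454-120041513, and the INSIG1 probe at chr4:121371794-121371853, also on the plus strand (Btau_3.1). The GC content of the whole probe was 38.3% and 66.7% for the SREBF2 probes, in the order shown, and 35.0% for the INSIG1 probe. The sources used here do not give the exon or UTR status of a probe.

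By its brightest probe, that at base 4328, SREBF2 was at 5.61, 4.98, 5.01 and 5.02 across the arrays labelled non-pregnant and at 1.94, 3.48, 3.42 and 4.12 on those labelled pregnant. The groups did not overlap, and the gene was 3.77-fold lower (log2 difference -1.91, SE 0.43, adjusted p = 0.00421). Its order among the arrays labelled pregnant was that of most synthesis enzymes, with array 1 lowest and array 4 highest. The probe at base 3433, the next by mean signal, read otherwise. It was at 2.14, 3.06, 4.67 and 4.24 across the arrays labelled non-pregnant and at 4.77, 4.56, 4.48 and 4.28 on those labelled pregnant (difference 0.99, SE 0.50, adjusted p = 0.117). Here the spread lay in the arrays labelled non-pregnant, of which arrays 1 and 2 were low. With the median over the 3 tested SREBF2 probes the difference was -0.29 and not called (adjusted p = 0.706, range over the alternatives 0.00162 to 0.706).

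SREBF1, whose SREBP isoforms act more on fatty acid synthesis, was at -1.84, -1.69, -0.71 and 0.28 against -1.73, -1.25, -1.35 and -1.22 (difference -0.39, SE 0.44, adjusted p = 0.464). The arrays labelled pregnant lay within the range of the other group, and without array 4 labelled non-pregnant the difference was 0.029. SREBF1 and SREBF2 were compared within each array. Their changes differed by 1.52, with SREBF2 falling further by its brightest probe, and the exact two-sided permutation test did not pass (p = 0.0857, adjusted p = 0.0857 over the 4 pairs of genes tested). With the median of each gene's probes the difference was -0.0082, so that it rests on the probe.

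INSIG1 was at 2.48, 2.66, 2.70 and 2.56 across the arrays labelled non-pregnant and at -0.13, 1.87, 1.16 and 1.36 on those labelled pregnant, 2.90-fold lower (log2 difference -1.54, SE 0.38, adjusted p = 0.00738). Its groups did not overlap, and array 1 labelled pregnant was again the lowest. Another INSIG1 probe, at base 1329, was dim and was not called (difference -0.18, SE 0.22, adjusted p = 0.497). It was well above background on all 4 arrays labelled non-pregnant and on none labelled pregnant. Its levels overlapped between the groups, so this split in detection is not read as a loss of signal. INSIG2, the second INSIG protein, was at -1.06, -0.41, -0.57 and -1.38 against -1.60, -1.60, -1.58 and -1.46 (difference -0.71, SE 0.24, adjusted p = 0.0291). That call was lost under 8 of 20 alternatives, among them the omission of array 2 or 3 labelled non-pregnant or of array 1, 2 or 3 labelled pregnant (adjusted p over all alternatives from 0.00691 to 0.0840). The changes of INSIG1 and INSIG2 differed by -0.83 (exact two-sided permutation p = 0.0857, adjusted p = 0.0857). SCAP, the sterol-sensing escort, was at 2.68, 1.999, 1.96 and 1.73 against 1.66, 1.74, 1.80 and 1.53, not called (difference -0.41, SE 0.23, adjusted p = 0.148).

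**Figure D4:**
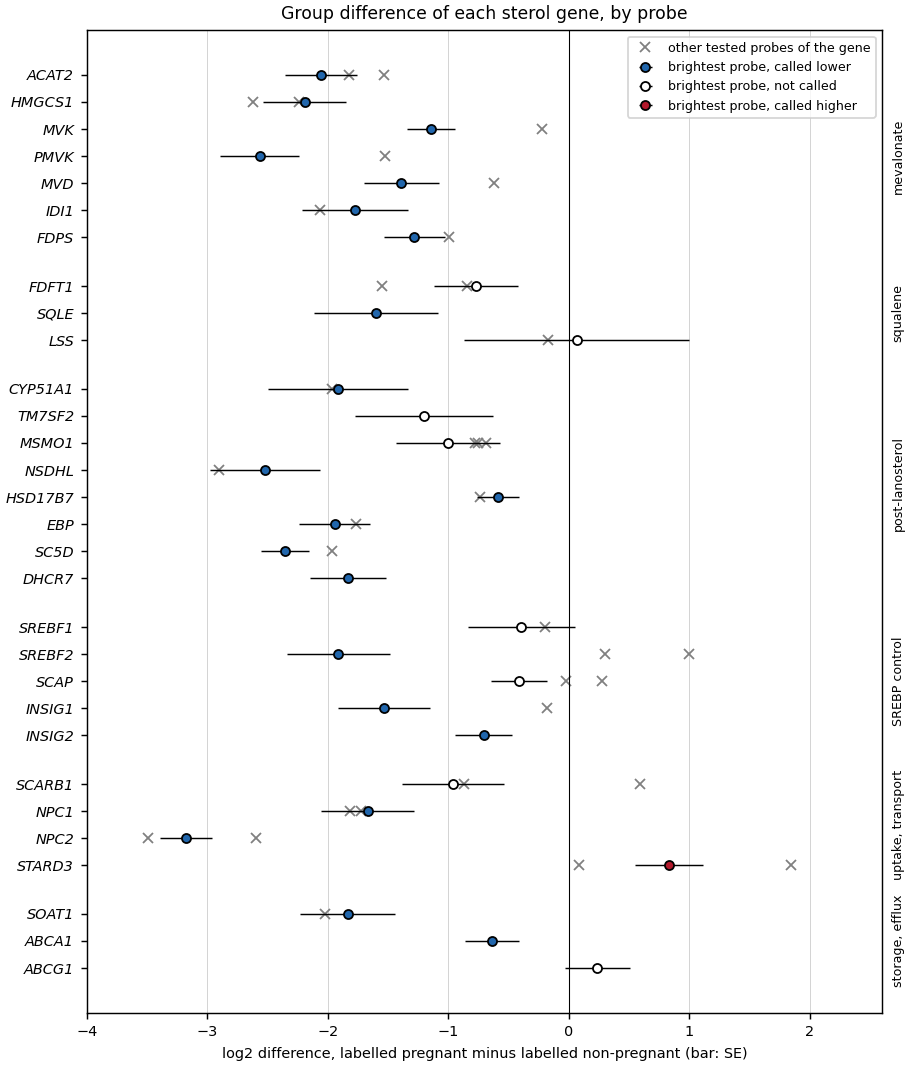
Log2 difference of each sterol gene, arrays labelled pregnant minus labelled non-pregnant, with the brightest probe as a circle (bar: SE, n = 4 arrays in each group) and other tested probes of the gene as crosses. Most circles lie left of 0, the SREBF2 crosses lie right of it at 0.30 and 0.99, and STARD3 is the only circle called higher.

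Beyond SREBF2 the probes of a gene mostly read alike. The 30 genes had 68 probes, of which 65 were tested, 39 called lower and 2 called higher, the 2 being probes of STARD3. Of 24 genes with several tested probes, 16 had the same call from every one. The other 8 were FDFT1, HSD17B7, MVD, MVK, SCARB1, SREBF2, STARD3 and, through its dim probe, INSIG1. LSS, SCAP, SCARB1 and SREBF2 had a probe of the opposite sign, and no gene had probes called in opposite directions. The brightest probe was the one nearest the 3′ end in 20 of 23 members with several probes on 1 transcript, and in 74.7% of all such genes.

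Of the 4 measured uptake and transport genes, NPC2 and NPC1 were called lower, STARD3 was called higher and SCARB1 was not called. NPC2, the soluble lysosomal protein that takes cholesterol freed from lipoproteins and hands it to NPC1 (chr10:88246534-88246593), had the largest difference of all 30 genes. It was at 7.06, 7.05, 7.38 and 6.96 across the arrays labelled non-pregnant and at 4.05, 4.30, 3.87 and 3.51 on those labelled pregnant, 9.04-fold lower (log2 difference -3.18, SE 0.22, adjusted p = 4.29e-06). All 3 NPC2 probes were called lower, at -3.49 to -2.60. Unlike in most synthesis enzymes, array 4 was the lowest of the arrays labelled pregnant.

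NPC1, the membrane partner that moves the sterol out of the lysosome (chr24:34199287-34199346), was at 3.57, 3.42, 3.25 and 3.27 against 1.32, 1.26, 1.28 and 2.99, 3.18-fold lower (log2 difference -1.67, SE 0.39, adjusted p = 0.00508). Arrays 1 to 3 labelled pregnant lay within 0.1 of each other and array 4 stood 1.70 above their mean. The changes of NPC1 and NPC2 differed by 1.51. The exact two-sided permutation test gave p = 0.0286, the smallest that 4 against 4 arrays allow, and an adjusted p of 0.0857 over the 4 pairs. A single pair at that smallest p cannot pass after adjustment over 4 pairs, so the test could not decide this difference. The within-array values of NPC1 minus NPC2 did not overlap, at -4.13 to -3.48 (labelled non-pregnant) and -3.05 to -0.53 (labelled pregnant).

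SCARB1, the receptor for high-density lipoprotein, was at 6.13, 5.77, 5.36 and 4.45 against 5.13, 4.53, 4.62 and 3.61 (difference -0.96, SE 0.42, adjusted p = 0.0789). Its groups overlapped and its brightest probe was not called. Without array 4 labelled non-pregnant, the lowest of its group, the difference was -1.28 and passed (adjusted p = 0.0187, range over the alternatives 0.00377 to 0.373). The other tested SCARB1 probes disagreed: that at base 1575 was called lower (-0.87, adjusted p = 0.0375). The probe at base 819 read 0.59 and was not called (adjusted p = 0.336). STARD3, which tethers late endosomes to the endoplasmic reticulum and transfers sterol there, was the only gene called higher. By the probe at base 1391 (chr19:41297740-41298205, plus strand), it was at -3.80, -3.65, -3.02 and -2.67 against -2.52, -2.59, -2.60 and -2.12 (difference 0.83, SE 0.28, adjusted p = 0.0300). The gap between the groups was small beside their spread. The STARD3 probe at base 465 (chr19:41292817-41293231, plus strand) gave 0.08 (adjusted p = 0.742), and a dim probe at base 982, detected on only 2 arrays labelled non-pregnant, gave 1.84 (adjusted p = 0.00400). The call was lost under 11 of 20 alternatives, such as median scaling (0.45, adjusted p = 0.154), no scaling, quantile normalization and the omission of any array except arrays 3 and 4 labelled non-pregnant (adjusted p over the alternatives from 0.00795 to 0.690).

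SOAT1 esterifies cholesterol for storage in droplets. It was at 1.58, 1.20, 1.17 and 0.47 across the arrays labelled non-pregnant and at -1.32, -0.87, -1.10 and 0.37 on those labelled pregnant, 3.57-fold lower (log2 difference -1.83, SE 0.39, adjusted p = 0.00344). On array 4 labelled pregnant it came close to the lowest array of the other group. ABCA1, which loads cholesterol onto apolipoprotein A-I, was dim: -3.87, -4.39, -4.42 and -4.56 against -4.56, -5.04, -5.08 and -5.10, with 3 of 4 arrays labelled pregnant well above background (difference -0.64, SE 0.22, adjusted p = 0.0332). The call was lost under 8 of the 19 alternatives that gave a value, and with the normexp background correction the difference was 0.14 (adjusted p = 0.581, the highest of the alternatives). ABCG1, which exports sterol to high-density lipoprotein, was at -4.19, -4.59, -3.90 and -3.39 against -3.90, -3.55, -3.68 and -3.997 (difference 0.24, SE 0.27, adjusted p = 0.471), not called. It was -0.17 with quantile normalization, and -0.15 and -0.25 with median scaling and without scaling, which moved the median of all genes down as well. The changes of ABCA1 and ABCG1 differed by -0.87 (exact two-sided permutation p = 0.0857, adjusted p = 0.0857).

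Neighbouring genes of the pathway, from lists of 96 genes with 89 tested, had 42 called lower and 19 higher, with a median of -0.47. The 19 include CYP7B1 and OLR1, which passed the filter only through the arrays labelled pregnant. The median was -0.03 over all tested genes, of which 32.9% were called lower and 29.9% higher. Among 14 genes that process SREBP or INSIG, 8 were lower and 2 higher. ERLIN2, a membrane scaffold of the degradation machinery in the endoplasmic reticulum, fell by 1.68 on the log2 scale (SE 0.22, adjusted p = 0.000187). RNF145, a ubiquitin ligase, fell by 1.38 (SE 0.31, adjusted p = 0.00426). SEC23A, a coat protein of the vesicles that leave the endoplasmic reticulum, rose by 0.88 (SE 0.27, adjusted p = 0.0192).

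Of 9 further genes around sterol synthesis, 2 were lower and 1 higher. ACLY, which supplies cytosolic acetyl-CoA from citrate, fell by 2.26 (SE 0.21, adjusted p = 2.40e-05). LBR, whose sterol reductase domain does the same step as TM7SF2, rose by 1.38 (SE 0.25, adjusted p = 0.00139). On the isoprenoid branches 8 of 14 were lower and 2 higher. FNTB, a subunit of protein farnesyltransferase, fell by 2.21 (SE 0.29), and COQ2 of ubiquinone synthesis fell by 1.91 (SE 0.33), while RCE1, a protease of prenylated proteins, rose by 1.08 (SE 0.20).

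Fatty acid synthesis, the other programme of the SREBPs, had 8 of 15 lower and 1 higher. ELOVL6, a fatty acid elongase, went from 4.32 ± 0.07 to 0.97 ± 0.27 (SD, n = 4 arrays each), and SCD, the stearoyl-CoA desaturase, from 5.62 ± 0.15 to 2.88 ± 1.22. By limma's test these were differences of -3.36 (adjusted p = 1.61e-06) and -2.74 (adjusted p = 0.00192). The low array behind the wide SD of SCD was array 1 labelled pregnant, at 1.07 against 3.26 to 3.76 on the other 3. ACSL4, an acyl-CoA synthetase, rose by 0.70 (SE 0.26, adjusted p = 0.0419).

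Genes of LXR and oxysterol metabolism, which respond to or make oxidised sterols, were the list in which more genes were higher (7 of 13) than lower (3 of 13). Among the 7 is CYP7B1, which was well above background on no array labelled non-pregnant. It passed the filter only through the arrays labelled pregnant, so its place among the 7 is no support for that count. CH25H, which makes 25-hydroxycholesterol, was at -6.22 to -5.37 on the arrays labelled non-pregnant, well above background on 3 of them, and at 0.28 to 1.04 on those labelled pregnant (difference 6.54, SE 0.25, adjusted p = 2.74e-07). PLTP, the phospholipid transfer protein, was at -5.56 to -5.35 against 0.48 to 1.33 (difference 6.38, SE 0.25, adjusted p = 3.06e-07). LPCAT3, a phospholipid acyltransferase and LXR target, fell by 2.23 (SE 0.28, adjusted p = 0.000156).

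Of 17 other sterol transport genes, 10 were lower and 3 higher. SOAT2, the second sterol acyltransferase, fell by 3.92 (SE 0.80, adjusted p = 0.00250), and TMEM97, which binds NPC1, fell by 3.68 (SE 0.35, adjusted p = 2.78e-05). SOAT2 and SOAT1 were thus both called lower. GRAMD1A, a carrier of sterol from the plasma membrane, rose by 2.14 (SE 0.19, adjusted p = 1.82e-05). Of 7 lipoprotein and scavenger receptors, 3 were lower and 3 higher. CD36, a scavenger receptor, was at 0.83 to 1.83 across the arrays labelled non-pregnant and at -6.61 to -4.56 on those labelled pregnant, well above background on 3 of the latter (difference -6.40, SE 0.47, adjusted p = 6.60e-06). OLR1, the receptor for oxidised low-density lipoprotein, was well above background on no array labelled non-pregnant and was at least 24.5-fold higher on those labelled pregnant, a bound that takes the higher of its own signal and the lowest detected signal on each dim array. It passed the filter only through the arrays labelled pregnant, so its place among the 3 higher receptors is no support for them. These lists were not tested against each other.

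**Figure D5:**
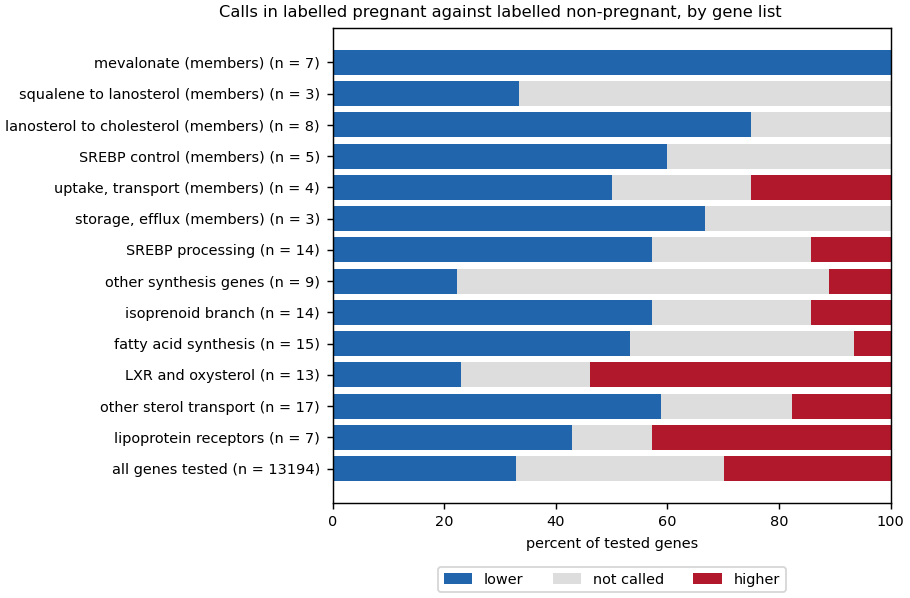
Share of tested genes called lower, not called or called higher on the arrays labelled pregnant, for the sterol genes by role, 7 neighbouring lists and all 13194 tested genes (limma, adjusted p below 0.05). All 7 mevalonate genes were called lower, and the LXR and oxysterol list had more genes called higher than lower. Of those called higher, CYP7B1 (LXR and oxysterol) and OLR1 (lipoprotein receptors) passed the filter only through the arrays labelled pregnant.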

How the data were processed

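The 31 genes and the neighbouring lists were chosen with earlier results of these data known. The spot intensity deposited by the authors is, per the file headers, background-subtracted output of Agilent Feature Extraction 11.5.1.1, unscaled between arrays. The authors' deposited table of log2 values served as an alternative. It correlated at 0.999 or above with log2 processed intensity, its log2 scale and centring near the 75th percentile were inferred from those values, its direction across genes was that of the intensity, and its column medians were -4.21, -4.01, -4.00 and -3.77 (labelled non-pregnant) and -3.56, -3.61, -3.64 and -3.61 (labelled pregnant).

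Here log2 processed intensity minus the array's 75th percentile was used. The 1319 control spots and 119 outlier-flagged spots were left out, spots of 1 probe were averaged, and probes detected (flagged well above background) on 4 or more of 8 arrays were tested with limma 3.58.1 in R 4.3.3, without covariates (34630 of 51282 probes). A gene is its brightest probe. Symbols were taken from a RefSeq table (ARS-UCD2.0) for names only, and 15713 probes matched no entry. Coordinates are the scanner files' own (Btau_3.1). Every sterol gene with a probe is named, as are, from each neighbouring list, the called genes with the largest difference each way, with 1 more where 4 or more were called that way. The fit was tested on simulated data, where 51% of true log2 differences of 2 and 90% of those of 4 were called. A gene not called may therefore still differ. Few of the 34599 simulated probes were given a difference, unlike the share of genes called here, so these rates need not hold here. Same-numbered arrays of the groups deviated together at r = 0.009, 0.075, 0.050 and 0.155 for numbers 1 to 4. The highest r with another number was 0.047, 0.030, 0.048 and -0.064. All were low, so numbers were not taken as pairs in the main fit, although most same-number values were the higher. Scaling, background, filter, probe choice, source of values, a replicate block and omitted arrays were varied, 20 alternatives in all.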

Additional observations from a re-analysis of the deposited data

Results flagged for a closer look

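In 10 of the 60 sets formed by 30 sterol genes and 2 groups of 4 arrays, 1 array stood apart from the other 3 by Dixon's criterion, where chance marks about 1 in 20. The genes share these arrays, so the 60 sets are not independent and the 10 cannot be read as an excess. Array 4 labelled pregnant was the high one in 5 of the 10: PMVK at 0.32 (next -0.91), TM7SF2 at 1.37 (next -0.58), NPC1 at 2.99 (next 1.32), INSIG2 at -1.46 (next -1.58) and STARD3 at -2.12 (next -2.52). ABCA1 was high on array 1 labelled pregnant, at -4.56 (next -5.04). On the arrays labelled non-pregnant, array 4 was low for SQLE at 4.78 (next 5.02) and for MSMO1 at 4.94 (next 5.54) and high for MVD at 1.51 (next 1.26). SREBF2 was high on array 1 labelled non-pregnant, at 5.61 (next 5.02). All values are log2 levels relative to the array's 75th percentile.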

How the results depend on the processing

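Over 20 alternatives the number of sterol genes called lower ran from 16 to 26 (21 as reported), and with 1 array left out from 16 to 23. The number of all genes called, 8280, ran from 6902 to 9741. The 1 gene called higher became 0 with median scaling, no scaling, quantile normalization, the median of probes, or without array 3 labelled non-pregnant and array 4 labelled pregnant together, and was 0 to 1 with 1 array left out. The members' median difference was -1.95 without scaling. With the replicate number as a block, 8045 genes were called and the sterol genes gave 21 lower and 1 higher, where CYP51A1 (adjusted p = 0.0532) and INSIG2 (0.0524) lost the call and TM7SF2 (0.0485) and SCARB1 (0.00711) gained it. Of the 22 called sterol genes, 15 kept the call under every alternative. The other 7 were SQLE, CYP51A1, HSD17B7, SREBF2, INSIG2, STARD3 and ABCA1. Directions turned for ABCA1 with normexp (0.14), for SREBF1 without array 4 labelled non-pregnant (0.029, where leaving out 1 array gave -0.68 to 0.029), for ABCG1 with median scaling (-0.15), no scaling (-0.25) and quantile normalization (-0.17), and for LSS with median scaling (-0.32), no scaling (-0.42), quantile normalization (-0.10), the median of probes (-0.055) and 4 of the 8 omissions of 1 array (from -0.41 to 0.89). The SREBF1 and SREBF2 difference of changes was -0.0082 with the median of probes (exact permutation, adjusted p = 0.886, the highest of the alternatives with a test). The causes of these changes were not tested. The pair of STARD3 and STARD4 was not run, since STARD4 had no probe. Median scaling and no scaling also moved the median of all genes, to -0.41 and -0.51. ABCA1 was not well above background on 1 array labelled pregnant, whereas the brightest probes of the other 29 genes were on all 8.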
